A study of Bos taurus with 27 samples.

Results

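The S100 calcium-binding proteins were described in 27 pools of bovine blastocysts by 3′ RNA sequencing. The genes were fixed by name as 10 members of the family, S100A1, S100A2, S100A4, S100A6, S100A10, S100A11, S100A13, S100A14, S100A16 and S100G. Of these, 9 had a row among the 32637 genes counted, and S100A6 was not analysed here. A total of 7 passed the filter on low values, at least 1 CPM (counts of a gene per 1000000 counts of the pool) in 12 pools, which retained 12310 genes. S100A1 and S100G did not pass and are described by their counts only.

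Each library held RNA of 2 Bos taurus blastocysts, graded stage 7 and quality 1. The embryos were produced in vitro from oocytes matured in medium holding preovulatory follicular fluid, from follicles of either greater or lesser maturity, and all were fertilized and cultured alike. The maturity treatment and the fertilization replicate of a pool are in none of its labels. All 27 pools were therefore 1 group, no treatments were compared, and no relation could be recomputed within a replicate. Any difference between treatments or replicates is part of the spreads and correlations given here and cannot be told apart from them. Values are given per pool or as the lowest, median and highest pool. The methods pooled embryos within a treatment and replicate and used fewer replicates than there are pools, so pools share cultures. P-values treat the 27 pools as independent, and they may be too small for that reason. Pools held 10517606 to 44253564 counts (median 22293594), and 3 counts were equal to between 0.0678 and 0.285 CPM. The fluid came from donor cows and the whole blastocyst was sampled, so every value is a mixture of trophectoderm, epiblast and hypoblast.

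S100 proteins are small proteins with a pair of calcium-binding EF-hand motifs, and most work as dimers that expose a binding surface for partner proteins when calcium rises. They have no enzyme activity of their own and act by binding annexins, cytoskeletal proteins, ion channels and transcription factors. S100A10 is the exception that holds its open form without calcium and pairs with annexin A2 at membranes. Many family members are abundant in epithelia, and the trophectoderm is the first epithelium of the embryo.

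Transcripts of 3 members were high in every pool, 2 were intermediate, and the other 4 were low or near the limit of detection. Together the 9 genes held 0.509% of all counts in the median pool. Their share was lowest in pool 32 at 0.343% and highest in pool 28 at 0.647%. The libraries copy mRNA from the poly(A) tail, so CPM was not divided by transcript length and the order of genes is on the CPM scale only.

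S100A10, the annexin A2 partner that helps to carry channels to the plasma membrane, was 1280 CPM in pool 32, 2243 CPM in the median pool and 3376 CPM in pool 31. Its median ranked 36 among the 12310 retained genes. The next pools at the top were pool 41 at 3284 CPM and pool 9 at 3017 CPM, and pool 12 at 1330 CPM was close to the lowest. No pool lacked it, and its highest level was 2.64 times its lowest.

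S100A16, a widely expressed member found in epithelia, was 845 CPM in pool 32, 1171 CPM in the median pool and 1459 CPM in pool 28. S100A14, an epithelial member encoded next to it, was 816 CPM in pool 9, 1135 CPM in the median pool and 1284 CPM in pool 5. Their medians ranked 94 and 98. S100A16 was above S100A14 in 20 of 27 pools and their ranges overlapped, while S100A10 was above both in all 27 pools on the CPM scale.

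S100A2, a nuclear member of epithelial cells, was 86.3 CPM in pool 26, 283 CPM in the median pool and 871 CPM in pool 35. Pools 9 and 28 were also high, at 746 and 723 CPM, and pools 12 and 6 were low, at 119 and 124 CPM. S100A11, which binds annexin A1 and takes part in epithelial growth control and membrane repair, was 23.3 CPM in pool 36, 115 CPM in the median pool and 357 CPM in pool 9. Pool 19 at 310 CPM was nearest to pool 9, and pool 31 at 31.6 CPM was nearest to pool 36. S100A2 was above S100A11 in 26 of 27 pools in CPM.

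S100A13, which takes part in the export of FGF1 and IL1A without a signal peptide, was 0.707 CPM in pool 24, 3.42 CPM in the median pool and 9.01 CPM in pool 13. S100A4, which binds the heavy chain of non-muscle myosin and is known from motile cells, was 0.908 CPM in pool 46, 2.30 CPM in the median pool and 4.70 CPM in pool 25. S100A13 was above S100A4 in 24 of 27 pools, with overlapping ranges of CPM.

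S100A1, known from heart and skeletal muscle, had between 1 and 130 counts per pool, with a median of 0.515 CPM. It reached 1 CPM in 6 pools, with 4.41 CPM in pool 14 and 3.90 CPM in pool 28 at the top, and 4 pools had 3 counts or fewer. S100G, the calcium carrier calbindin-D9k of intestine and uterus, had no count in 23 pools. Its 30 counts were 16 in pool 28, 9 in pool 15, 4 in pool 6 and 1 in pool 45. In the annotation S100G overlaps CTPS2 on chromosome X, and whether reads were counted by strand is not given in the sources used here. S100G was therefore not detectable above 3 counts in 24 of 27 pools, and its highest value was 1.52 CPM.

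**Figure D1:**
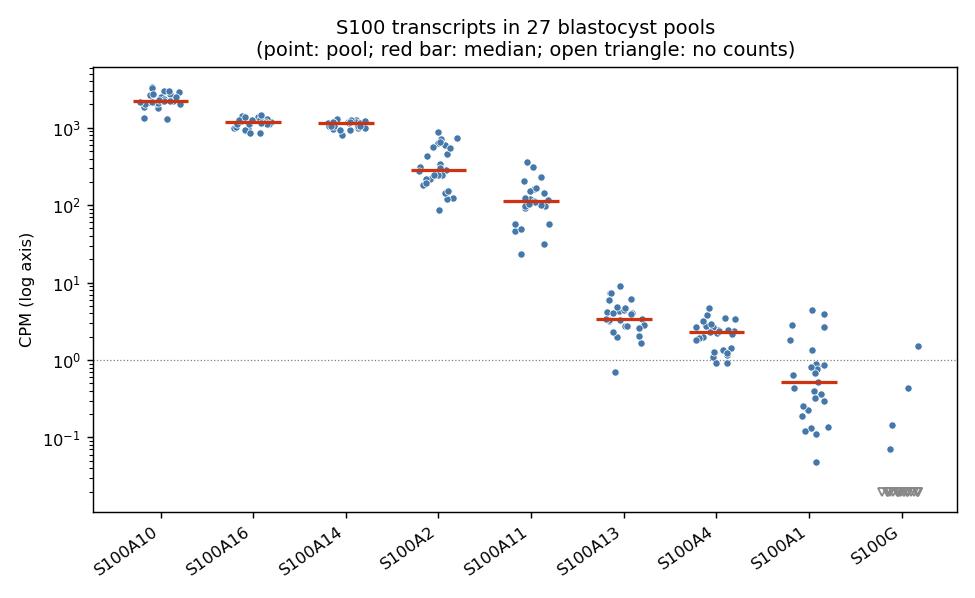
Level of 9 S100 transcripts in each of 27 blastocyst pools, in CPM on a log axis, ordered by median, where a point is 1 pool, a red bar the median, an open triangle a pool with no count and the dotted line 1 CPM. S100A16 and S100A14 form tight bands with medians of 1171 and 1135 CPM, below a somewhat wider band of S100A10 with a median of 2243 CPM. S100A2 and S100A11 spread widely, and S100G has no count in 23 pools.

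The members differed in how much they varied between pools, as well as in level. The biological coefficient of variation (the relative spread between pools beyond counting error, from edgeR) was 0.147 for S100A14, 0.171 for S100A16 and 0.241 for S100A10. Over the 181 genes with a median of at least 800 CPM, the median of this coefficient was 0.167 and the median ratio of highest to lowest pool was 1.79. The ratio of highest to lowest pool was 1.57 for S100A14 and 1.73 for S100A16, close to those abundant genes. For S100A10 the ratio was 2.64, and its coefficient was above the 0.211 of the edgeR trend at its abundance.

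S100A2 and S100A11 stood at the variable end for their level. Their coefficients were 0.551 and 0.537, against 0.221 and 0.240 from the edgeR trend at the same abundance and a median of 0.337 over all retained genes. The highest pool was 10.1 times the lowest for S100A2 and 15.3 times for S100A11, where the median ratio was 3.81 over the 11372 retained genes with counts in every pool. Pool 9 held 10.5% of the summed CPM of S100A11 and pool 35 held 8.80% of that of S100A2, where an even share would be 3.70%.

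S100A13 and S100A4 had coefficients of 0.486 and 0.446, under the trend of 0.600 and 0.702 for genes of so few counts. Different pools were extreme for different members. Pool 32 was lowest in both S100A10 and S100A16, and pool 28 was highest in S100A16 and second in S100A1. Pool 31 was highest in S100A10 and second lowest in S100A11. Pool 9 was highest in S100A11, behind 2 other pools in S100A10 and lowest in S100A14.

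**Figure D2:**
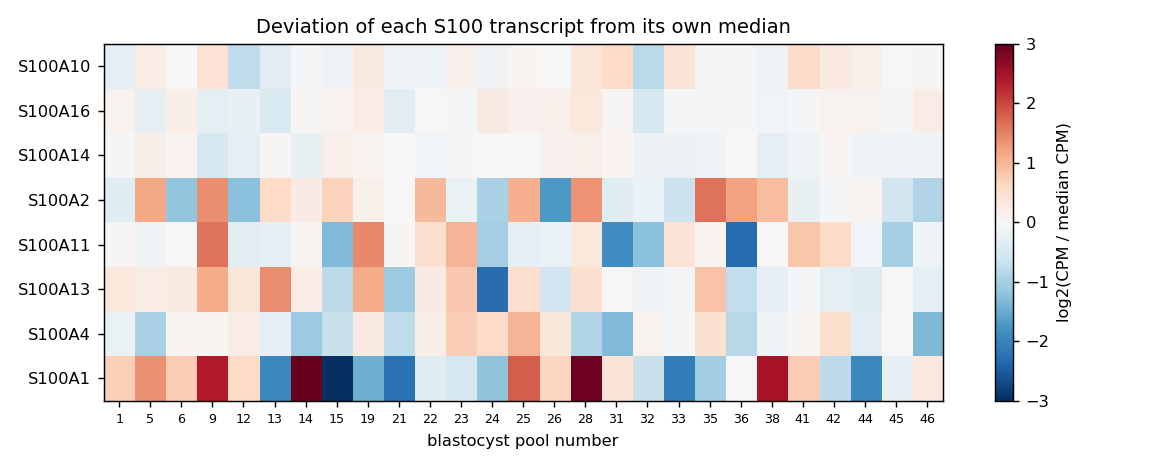
Deviation of 8 S100 transcripts from their own median in each blastocyst pool, as log2 of CPM over the median CPM, with red above and blue below the median and the scale held at 3 in either direction. The rows of S100A14 and S100A16 are nearly even, and those of S100A2 and S100A11 carry high and low pools that are only partly the same. Pool 9 is high in both, and pool 36 is low in S100A11 and high in S100A2.

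In the RefSeq annotation of ARS-UCD2.0, the build of the counts, 14 S100 genes lie on chromosome 3, including 8 of the members counted. A first block spans chr3:16751807-17117829 and holds S100A1, S100A13, S100A14, S100A16, S100A2 and S100A4 in that order, with S100A3, S100A5, S100A7, S100A8, S100A12 and S100A9 beyond or between them. A second block at chr3:18728742-18773422 holds S100A11 and S100A10, 1611 kb further on. S100G lies apart at chrX:126857761-126861849. None of the members on chromosome 3 overlaps another annotated gene.

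Neighbours in the block differed in level by orders of magnitude. S100A13 at chr3:16756630-16763331 had a median of 3.42 CPM, and S100A14 begins 3112 bases after it at chr3:16766444-16768623 with a median of 1135 CPM. S100A16 begins 474 bases further at chr3:16769098-16776634 with a median of 1171 CPM. S100A1 at chr3:16751807-16756164 ends 465 bases before S100A13 and was under 1 CPM in 21 pools. S100A2 at chr3:16808490-16811826 lies between S100A16 and S100A3, and S100A4 at chr3:16824260-16826547 lies between S100A3 and S100A5. S100A11 at chr3:18728742-18733582 and S100A10 at chr3:18762488-18773422 are 28905 bases apart, with medians of 115 and 2243 CPM.

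The other S100 genes gave a lower level than the leading members. Of 11 listed, 8 were counted and 6 were retained. S100A12 had a median of 53.6 CPM (10.7 to 125 CPM), and S100A5 had a median of 47.7 CPM (29.1 to 75.2 CPM). S100A8 and S100A9, which form calprotectin in neutrophils and epithelia, had medians of 12.7 and 11.3 CPM. S100A8, S100A9 and S100A12 were each lowest in pool 31 and highest in pool 5. S100A3 and S100B had medians of 5.33 and 4.41 CPM, and S100A7 and S100Z reached at most 1.24 and 0.877 CPM.

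**Figure D3:**
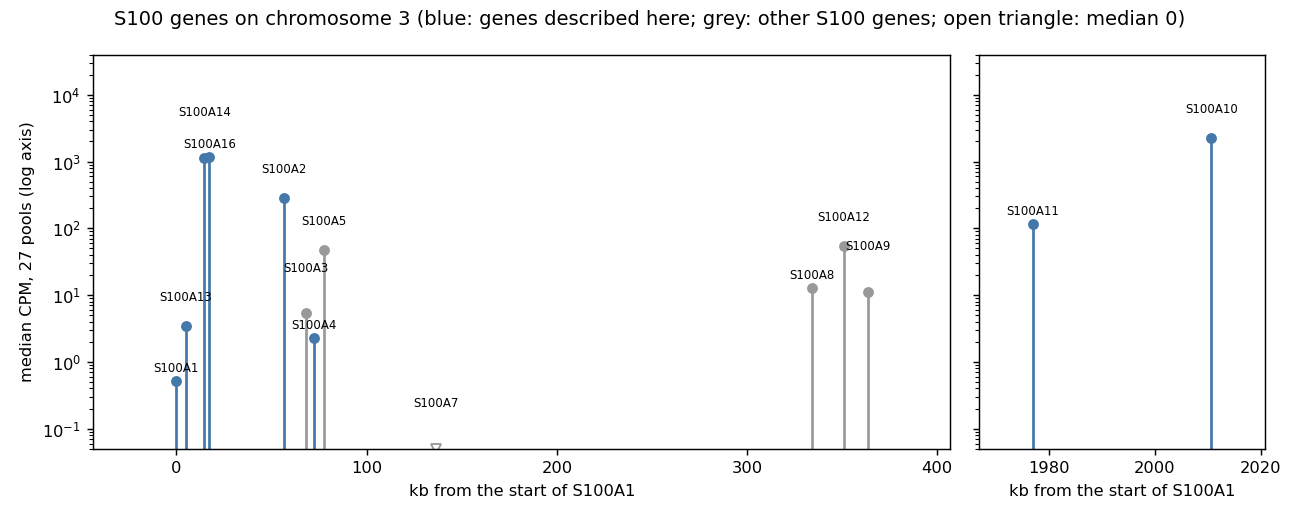
Median CPM over 27 pools, on a log axis, of the 14 S100 genes of chromosome 3, against the distance of each gene from the start of S100A1 in kb, in 2 panels for the 2 blocks. Blue marks the genes described here, grey the other S100 genes, and the open triangle a median of 0 (S100A7). S100A14 and S100A16 stand at 1135 and 1171 CPM beside S100A13 at 3.42 CPM.

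The relation of the members to one another was tested by Spearman correlation over the 27 pools, with 100000 two-sided permutations of the pools and Benjamini-Hochberg adjustment over all retained genes, for both members of a pair. None of the 21 pairs was called at an adjusted p of 0.05 by this permutation test, and 3 had an unadjusted p of 0.05 or less. Coefficients ran from -0.27 to 0.43 with a median of 0.0946, and 14 pairs were positive. Taking each member in turn against all other genes, 0% of genes were called for S100A2, S100A4, S100A13, S100A14 and S100A16, 1.01% for S100A10 and 0.236% for S100A11. Genes that reached an unadjusted p of 0.05, of 12309 tested for each member, numbered 318 for S100A2, 755 for S100A4 and 1941 for S100A10. They numbered 1731 for S100A11, 1047 for S100A13, 1083 for S100A14 and 1524 for S100A16.

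The 3 pairs with the highest rho were neighbours on the chromosome in 2 cases. S100A10 and S100A11 had rho = 0.434 (adjusted p = 0.235 and 0.276, r = 0.351), and r was 0.286 without pools 12 and 32 and 0.635 without pools 31 and 36. S100A14 and S100A16 had rho = 0.427 (adjusted p = 0.507 and 0.334, r = 0.371), and r was 0.279 without pools 9 and 38 and 0.453 without pools 13 and 32. S100A11 and S100A13, far apart in the annotation, had rho = 0.431 (adjusted p = 0.278 and 0.512, r = 0.532, 0.548 without pools 31 and 36 and 0.592 without pools 13 and 24). S100A13 and S100A14, separated by 3112 bases, had rho = -0.05, and S100A16 and S100A2 had rho = -0.27.

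Levels were then set against 6 measures of a pool, which were summed interferon tau transcripts, scores of trophectoderm, epiblast and hypoblast markers, summed leukocyte transcripts and the total count. A score is the mean over markers of standardized log2(CPM + 1). All 10 trophectoderm markers were retained, with a sum between 16880 and 42218 CPM. Epiblast markers were retained for 3 of 5 and summed to between 36.5 and 171 CPM, and hypoblast markers for 4 of 6, between 40.9 and 119 CPM. FGF4 and SOX17 had a median of 0. Cumulus and granulosa markers, from cells around the oocyte, summed to between 5.31 and 34.0 CPM with 3 of 6 retained, and stromal markers to between 5.76 and 43.5 CPM with 2 of 4 retained.

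S100A11 was positively correlated with interferon tau, the trophoblast signal by which the ruminant embryo is recognized in pregnancy. With the trophectoderm score, S100A11 had rho = 0.00488 (permutation test, adjusted p = 0.993). Interferon tau had a median of 40.9 CPM and ran from 7.21 to 589 CPM, and pool 9 was highest with pool 14 next at 264 CPM. Pool 9 was highest in both, at 357 CPM of S100A11, and pool 36 was lowest in both, at 23.3 CPM of S100A11. Among the pools high in S100A11, pool 19 ranked 3 in interferon tau, pool 23 ranked 7 and pool 41 ranked 8. Pool 28 was an exception, with rank 8 in S100A11 and rank 26 in interferon tau. Pool 5 ranked 5 in interferon tau and 16 in S100A11, and pool 14 ranked 2 and 10.

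Over the 27 pools, S100A11 and interferon tau had rho = 0.658 (permutation test, p = 0.00021, adjusted p = 0.0308) and r = 0.694 (permutation p = 4e-05). Without pools 9 and 14, r was 0.658. It was the only 1 of the 7 members called, where 1.46% of all retained genes were called. Leaving out any 1 of 10 pools (9, 15, 19, 23, 24, 32, 33, 36, 41 or 42) ended the call, with rho between 0.617 and 0.644 and adjusted p between 0.0585 and 0.0899, and 17 other pools could each be left out without ending it. With all genes with any count in the adjustment, the adjusted p was 0.0581. IFNT3, the interferon tau gene that was retained, had rho = 0.662 with S100A11 (adjusted p = 0.0625 with S100A11 as the fixed gene). Its median was 40.6 CPM, against 40.9 CPM for the interferon tau sum, so this is nearly the same relation under another adjustment.

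The other members were not called with interferon tau. S100A10 had rho = 0.478 (adjusted p = 0.184) and S100A13 had rho = 0.399 (adjusted p = 0.288), while the remaining 4 were between -0.16 and 0.16. Of the other S100 genes, S100A3 was called (rho = 0.643, adjusted p = 0.0377). ANXA1, annexin A1 and a binding partner of S100A11, was called too (rho = 0.742, adjusted p = 0.0137) and was highest in pool 9 at 3146 CPM. It was the only 1 of 20 retained genes of the partner list called. Without pool 9, ANXA1 was still called (rho = 0.711, adjusted p = 0.0396) and S100A3 was not (rho = 0.612, adjusted p = 0.0905).

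S100A16 was positively correlated with the trophectoderm score. S100A16 was highest in pool 28 at 1459 CPM, which ranked 3 in the score, and lowest in pool 32 at 845 CPM, which ranked 26. The lowest score was that of pool 9, where S100A16 was 964 CPM. Pool 24 was an exception with the second highest S100A16 level, 1414 CPM, and rank 16 in the score.

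S100A16 and the trophectoderm score had rho = 0.645 (permutation test, p = 0.00031, adjusted p = 0.0165) and r = 0.658 (permutation p = 0.00022), and r was 0.531 without pools 9 and 32. It was the only 1 of 7 members called, where 5.58% of all retained genes were called. Without pool 9 the call ended (rho = 0.578, adjusted p = 0.0587), as it did without the 2 pools of lowest total count, pools 25 and 28 (rho = 0.610, adjusted p = 0.0578). Leaving out any other single pool did not end it. Fewer cells of a type and less RNA per cell cannot be told apart in these pools, for this or any other score.

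Among the 10 trophectoderm markers, which make up the score, 9 had a positive rho with S100A16, with a median of 0.414. These values are parts of the relation with the score and no separate support for it. The keratins KRT8 and KRT18, the filament proteins of simple epithelia, had the highest values, at rho = 0.698 (adjusted p = 0.0855) and 0.526 (adjusted p = 0.214). With TMM effective library sizes both were called, at rho = 0.731 (adjusted p = 0.0197) and 0.675 (adjusted p = 0.0264). The transcription factors GATA3, CDX2 and GATA2 had rho of 0.460, 0.449 and 0.425, and TFAP2C and TEAD4 had 0.00427 and -0.03. The corresponding median was 0.268 for S100A10, 0.150 for S100A14 and between -0.15 and 0.0247 for the other 4 members.

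**Figure D4:**
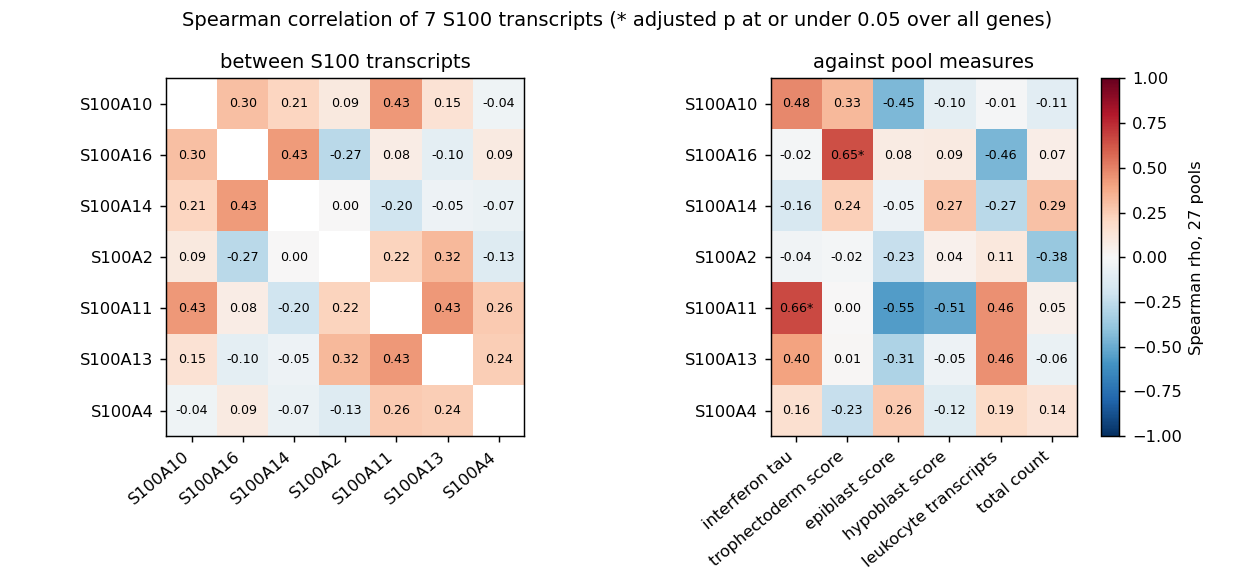
Spearman rho over 27 pools between 7 S100 transcripts (left) and of each against 6 measures of a pool (right), with red positive, blue negative and an asterisk at an adjusted p of 0.05 or less over all retained genes. The pair S100A11 with interferon tau (rho 0.66) and the pair S100A16 with trophectoderm score (rho 0.65) carry the asterisks.

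No member was called with the epiblast or hypoblast score or with the total count, for which 0% of all retained genes were called by the permutation test. At an unadjusted p of 0.05 or less, 2 members and 1031 genes were counted for the epiblast score, 1 member and 1208 genes for the hypoblast score, and no member and 416 genes for the total count. edgeR called 8 genes for the epiblast score and 0 for the hypoblast score and the total count. S100A11 had its most negative values here, with rho = -0.55 (adjusted p = 0.330) against the epiblast score and -0.51 (adjusted p = 0.356) against the hypoblast score. Against the summed CPM of the markers, S100A11 had rho = -0.49 (adjusted p = 0.416) for epiblast and -0.65 (adjusted p = 0.107) for hypoblast. S100A10 had rho = -0.45 (adjusted p = 0.525) against the epiblast score, and -0.16 (adjusted p = 0.885) against the summed CPM of its markers. S100A2 had the largest value against total count, rho = -0.38 (adjusted p = 1.00).

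Summed leukocyte transcripts were between 196 and 565 CPM, of which CD48 held between 84.5% and 97.7%. Of the 10 leukocyte markers 6 were retained, and LAPTM5, CD79A, CSF1R and CD3E had medians under 1 CPM. No member was called, where 8.7% of all retained genes were called. Among the 6 other S100 genes retained, only S100A3 was called with leukocyte transcripts (permutation test, rho = 0.537, adjusted p = 0.0495). At an unadjusted p of 0.05 or less, 3 members, 5 of the 6 other S100 genes and 2979 of 12310 genes were counted. The 3 members were S100A11 (rho = 0.458, adjusted p = 0.114), S100A13 (rho = 0.455, adjusted p = 0.115) and S100A16 (rho = -0.46, adjusted p = 0.117). By Pearson correlation S100A11 was called (r = 0.609, adjusted p = 0.0137). With edgeR's quasi-likelihood test it was called as well (adjusted p = 0.0184). Without CD48 in the sum, rho was 0.223 for S100A11 (adjusted p = 0.749), 0.261 for S100A13 and -0.23 for S100A16. The part of leukocyte transcripts in the relation of S100A11 to interferon tau was not tested.

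Binding partners of S100 proteins were measured from a list of 27 genes of partners and calcium transport, of which 20 were retained. Annexins bind membrane phospholipids when calcium is present. ANXA2, the partner of S100A10, had a median of 590 CPM (439 to 885 CPM), and ANXA1 had a median of 1106 CPM (410 to 3146 CPM). AHNAK, a giant scaffold protein that binds the S100A10 and annexin A2 complex, had a median of 160 CPM. MYH9, the myosin heavy chain bound by S100A4, had a median of 119 CPM.

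Of 17 pairs of a member with a known partner, 9 could be tested, 0 were called by the permutation test, and 1 had an unadjusted p of 0.05 or less. That pair was S100A11 with ANXA1, with rho = 0.640 (permutation p = 0.00048, adjusted p = 0.0727) and r = 0.665. Without pools 31 and 36, r was 0.653. It was called by Pearson correlation (adjusted p = 0.0221) and without pools 25 and 28 (rho = 0.716, adjusted p = 0.0316). It was not called without pool 9 (rho = 0.597, adjusted p = 0.142) or with all genes with any count (adjusted p = 0.127). Nor was it called with TMM effective library sizes (adjusted p = 0.0705) or DESeq2 size factors (adjusted p = 0.0694). S100A10 had rho = 0.0598 with ANXA2 and 0.287 with AHNAK. S100A4 with MYH9 had rho = -0.01.

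Calcium handling genes differed in level as well. TRPV5, an epithelial calcium channel, had a median of 86.3 CPM, and its close relative TRPV6 had no count in 18 pools. VDR, the vitamin D receptor that controls S100G in intestine, had 2 counts in 1 pool and none in 26. ATP2B1, a calcium pump of the plasma membrane, had a median of 109 CPM.

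Against the trophectoderm score, 4 of the 20 partner genes were called, where 5.58% of all retained genes were, with AHNAK (rho = 0.749), ANXA6 (rho = 0.675) and MYH9 (rho = 0.559) positive and CACYBP, a calcyclin-binding protein, negative (rho = -0.63). With summed CPM of the markers in place of the score, AHNAK was not called (rho = 0.446, adjusted p = 0.135). Without pool 9, AHNAK was called (rho = 0.752), and the adjusted p was 0.0543 for ANXA6, 0.0748 for MYH9 and 0.0586 for CACYBP. With TMM effective library sizes MYH9 and CACYBP were not called (adjusted p = 0.114 and 0.183). Against leukocyte transcripts 2 of 20 were called, where 8.7% of all retained genes were. ANXA1 (rho = 0.589) was positive and ANXA6 (rho = -0.80) was negative, and neither was called without CD48 (adjusted p = 0.580 and 0.683). The ANXA1 call also ended with TMM effective library sizes (adjusted p = 0.0708), DESeq2 size factors (0.0664) and all genes with any count (0.0526), and without pools 25 and 28 (0.0649).

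**Figure D5:**
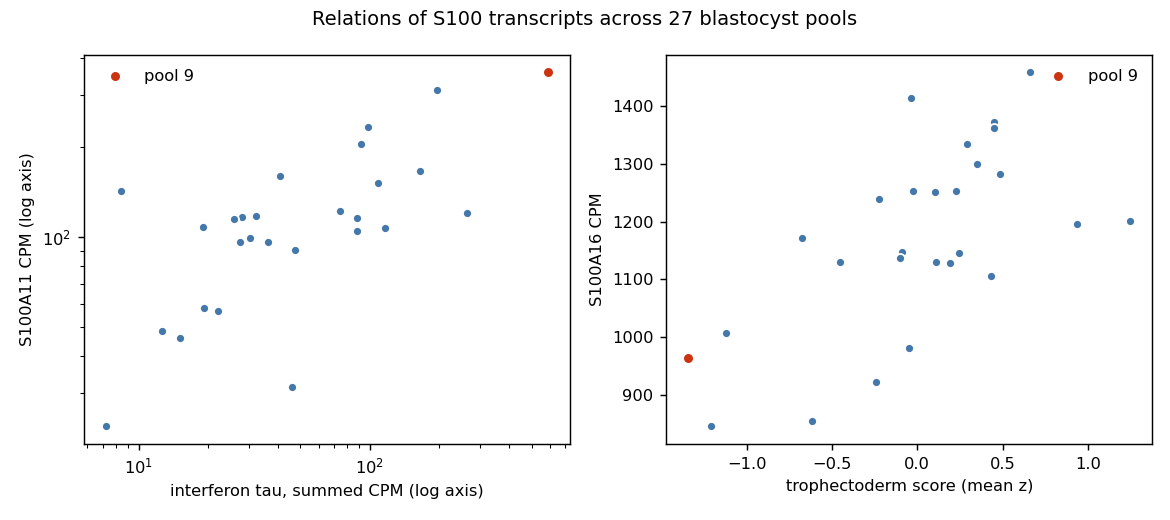
Each point is 1 of 27 blastocyst pools, with S100A11 against summed interferon tau in CPM on log axes (left) and S100A16 in CPM against the trophectoderm score (right), and pool 9 in red. S100A11 and interferon tau rise together with pool 9 at the top of both, and S100A16 is 964 CPM in pool 9, which has the lowest trophectoderm score.

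The genes whose pattern over the 27 pools was most like each member were taken as the 3 with the highest Spearman rho. For S100A11 they were KLK5, a secreted serine protease of epithelia (rho = 0.841), CYTH2 (0.782) and SGMS2, a sphingomyelin synthase (0.764), all called (permutation test, adjusted p = 0.0369). The unadjusted p of KLK5 and CYTH2 was 1e-05, the smallest that 100000 permutations can give. Without pool 9 their rho was 0.824, 0.776 and 0.735, and the adjusted p of each was 0.0821. For S100A10 they included LOC100196898 (rho = 0.766) and DMAC1, an assembly factor of mitochondrial complex I (0.725), both called, also with TMM effective library sizes (rho = 0.716 and 0.711).

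For the other members the nearest genes were not called by Spearman correlation on CPM, and by Pearson correlation P4HA2 was called with S100A16 (r = 0.723, adjusted p = 0.0410). With TMM effective library sizes, the genes named for S100A16 and S100A14 were called, with rho from 0.731 to 0.827 and adjusted p from 0.0137 to 0.0410. S100A16 was nearest to P4HA2, a collagen prolyl hydroxylase (rho = 0.725), CYB5R3 (0.720) and the keratin KRT8 (0.698), each with an adjusted p of 0.0855. KRT8 is also 1 of the markers in the trophectoderm score. S100A14 was nearest to SH3D21 (rho = 0.705), ATP5PF (0.672) and CSRP2 (0.664), with adjusted p from 0.222 to 0.364. S100A4 was nearest to its neighbour S100A5, which starts 2747 bases after it (rho = 0.688, adjusted p = 0.513), then to LOC100300684 (0.683) and LOC100848180 (0.681). S100A13 was nearest to VSTM1 (0.662), TUBA4A (0.658) and the interferon-stimulated gene MX1 (0.655), with an adjusted p of 0.442. S100A2 was nearest to CARHSP1 (0.613), PPP1R2 (0.607) and TUBD1 (0.604), with an adjusted p of 1.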

How the data were processed

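Libraries of 27 pools of 2 blastocysts came from the SMART-Seq v4 3′ DE chemistry. Before deposit, the authors used fastp for trimming, STAR for alignment to the ARS-UCD2.0 genome and featureCounts for assignment to genes. The deposited values are raw counts of 32637 genes. Tool versions and strand setting are not given in the sources used here. Reads are not molecules, so floors cover counting error only.

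CPM was the count per 1000000 counts of a pool, with a filter of 1 CPM in 12 pools. Correlations used 100000 permutations, and Pearson r used log2(CPM + 1). Adjustment was Benjamini-Hochberg over 12310 genes for each of 6 measures and 12309 for each of 7 members, giving 42 relations of members to measures, 21 pairs and 9 partner pairs. The coefficient of variation and TMM factors (0.892 to 1.08) came from edgeR 4.0.16 in R 4.3.3, and DESeq2 1.42.0 gave alternative size factors. Python 3.11.15, numpy 2.4.6, pandas 2.3.3, scipy 1.17.1 and matplotlib 3.10.9 were used. The scripts were tested on simulated data.

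The genes, partner pairs and marker lists were chosen with earlier results of these data known. Named genes were the members, the other S100 genes, the partner list, the markers and the 3 genes nearest to each member by rho. Alternatives covered normalization, the filter, Pearson correlation and its pseudocount, summed markers, edgeR and left-out pools. The leukocyte sum without CD48, the fit without pool 9 and leaving out each pool in turn were chosen after seeing the data. Results for some listed genes are not reported here.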

Additional observations from a re-analysis of the deposited data

How the results depend on the processing

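No relation that was called changed direction under the alternatives that were run. Among relations near 0, rho turned from negative to 0.0115 (without pools 25 and 28) and 0.0140 (without pool 9) for S100A4 with MYH9, and without pool 9 to 0.0338 for S100A13 with S100A14. No paired analysis was possible because all pools form 1 group. The count of members called with interferon tau went from 1 to 0 with all genes with any count (S100A11, adjusted p = 0.0581) and without pool 9 (adjusted p = 0.0899). The count with the trophectoderm score went from 1 to 0 without pools 25 and 28 and without pool 9. The count with leukocyte transcripts went from 0 to 1 under Pearson correlation with a pseudocount of 1 or 0.1, without pools 25 and 28 (S100A13, rho = 0.582, adjusted p = 0.0473) and with edgeR. The count of partner pairs went from 0 to 1 under Pearson correlation with either pseudocount and without pools 25 and 28. The cause was not tested. With all genes with any count, more genes were tested.

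Counts over all genes moved more. Genes called with S100A10 were 124, against 26 with TMM, 25 with DESeq2 size factors, 338 by Pearson correlation and 30 without the filter. Those with S100A11 were 29, against 337 by Pearson correlation, 80 without pools 25 and 28, and 0 both without the filter and without pool 9. Those with S100A16 were 0, against 126 with TMM and 121 with DESeq2 size factors, and those with S100A14 were 0, against 15 and 16. Genes called with interferon tau were 180, against 74 without the filter, 97 without pools 25 and 28, 58 without pool 9 and 283 with edgeR. Genes called with the trophectoderm score were 687, against 396, 272 and 401 under the first 3 of these. Genes called with leukocyte transcripts were 1071, against 114 without CD48.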

Other observations

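The 3 genes furthest in the opposite direction from S100A10 were looked at after their values were seen, outside the rule for named genes. They were CUL2 (rho = -0.84), ZNF382 (rho = -0.84) and POU5F1, each with an adjusted p of 0.0137 by the permutation test. POU5F1, the pluripotency factor OCT4, which bovine trophectoderm also expresses, was 753 CPM in pool 32, where S100A10 was lowest, and 109 CPM in pool 31, where S100A10 was highest. Over the 27 pools rho was -0.81 (permutation test, adjusted p = 0.0137) and r was -0.74. With TMM effective library sizes rho was -0.66 and the adjusted p was 0.0783.

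The calgranulin genes next to each other on chromosome 3 had nearly the same pattern. S100A8 and S100A12 had rho = 0.976 over the 27 pools, and S100A12 and S100A9 had rho = 0.973, given as a description. No test of the difference from the members was made.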
